A study of Mus musculus with 8 samples.

Results

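The 10 genes described here are receptors for extracellular nucleotides and adenosine, together with 1 enzyme that degrades the nucleotides. They are the ATP-gated ion channels P2rx4 and P2rx7, the G protein-coupled nucleotide receptors P2ry2, P2ry6, P2ry12, P2ry13 and P2ry14, the adenosine receptors Adora2a and Adora2b, and the ectonucleotidase Entpd1 (CD39). They were chosen by name among the 23761 genes of a table made from RNA of cultured macrophages, derived from the bone marrow (BMDMs) of 4 LysM and 4 K2KO mice, and all 10 were listed.

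LysM mice are LysM Cre/Cre, with Cre recombinase driven by the lysozyme M gene in myeloid cells, and K2KO mice are LysM Cre/Cre KLF2 flox/flox. Cre is thus on both alleles of both groups, and floxed Klf2 on those of K2KO alone. The mice were 3 months old, and marrow from femur and tibia was grown into BMDMs in medium conditioned by L929 fibroblasts. The libraries are marked as vehicle-treated. Their number in the deposited table is kept here (LysM0 to LysM3 and K2KO0 to K2KO3), and it gives the genotype but not which mouse a library came from. Values are FPKM, which count fragments per length of transcript and relative to all mapped fragments. Levels of different genes are set side by side on that basis, though a listed value can be too low for a gene, as for Gapdh below. All FPKM of a library summed to 497253 to 551608 in LysM and to 448235 to 501965 in K2KO, and the read depth is unknown.

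Cells that are stressed, dying or activated release ATP, UTP and their diphosphates, which act as local danger signals on neighbouring macrophages. P2X receptors are channels that open on ATP, and P2Y receptors signal through G proteins. Entpd1 on the cell surface cuts ATP and ADP down to AMP, other ectoenzymes release adenosine from AMP, and adenosine then acts on its own receptors, which in macrophages generally dampen inflammatory output through cyclic AMP.

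Klf2, the floxed gene, encodes a zinc finger transcription factor of the Krüppel-like family and lies at chr8:72319033-72321656 (GRCm38, the assembly behind mm10, plus strand). Its level was 44.1, 52.9, 64.7 and 72.8 FPKM in LysM0 to LysM3 and 45.5, 41.6, 59.2 and 59.3 FPKM in K2KO0 to K2KO3. The groups overlapped, and no K2KO library was near 0. Klf2 differed by -0.18 on the log2 scale (standard error 0.17; adjusted p = 0.460 with limma), and by 0.06 once values were corrected for the GC content and length of transcripts. Values per gene cannot tell whether reads came from the floxed exons. Klf2 thus did not separate the groups, so directions below are given for the libraries labelled K2KO.

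The cells carried macrophage markers. Cd68, a lysosomal glycoprotein, had a mean of 1807 FPKM over all libraries, and Csf1r, the receptor for macrophage colony-stimulating factor, was at 524 ± 15.5 FPKM in LysM and 526 ± 53.2 FPKM in K2KO (SD, n = 4). Adgre1, which encodes F4/80, was at 433 ± 62.3 and 440 ± 68.6 FPKM (SD, n = 4). These 3 markers did not separate the genotypes. In bulk RNA, fewer cells of a type and less RNA per cell cannot be told apart. Gapdh was listed at 0 to 0.4999 FPKM while Actb was at 1962 to 2949 FPKM, so low values here are not taken to show that a transcript was missing.

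The level of the 10 genes fell into a high, a middle and a low tier. P2rx4 and P2ry6 led, at 162 ± 8.31 and 143 ± 2.43 FPKM in LysM and at 160 ± 5.20 and 127 ± 1.01 FPKM in K2KO (SD, n = 4). Together they held 79.5% ± 0.344 of the summed FPKM of the 10 genes in LysM and 76.4% ± 0.603 in K2KO (SD, n = 4). Entpd1 came next with 9.19% ± 0.808 and 11.8% ± 0.311, and P2rx7 followed with 6.65% ± 0.272 and 5.89% ± 0.156. The sum itself was 383 ± 9.77 FPKM in LysM and 375 ± 9.73 FPKM in K2KO.

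In each genotype the order was P2rx4, P2ry6, Entpd1, P2rx7, P2ry14, P2ry2 and Adora2b, and the ranges of neighbours in that order did not overlap. P2ry13, P2ry12 and Adora2a were last, and their ranges overlapped. Among 16122 listed protein-coding genes, the mean level of P2rx4 stood at percentile 97.3 and that of P2ry6 at 96.8. Entpd1 stood at 88.8, P2rx7 at 82.5 and P2ry14 at 72.2, while Adora2a, at 33.5, was the lowest of the 10. In these cultures the abundant receptors were thus an ATP-gated channel and P2ry6, a receptor for UDP, and P2ry12, the ADP receptor known from platelets and resting microglia, was barely listed.

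**Figure D1:**
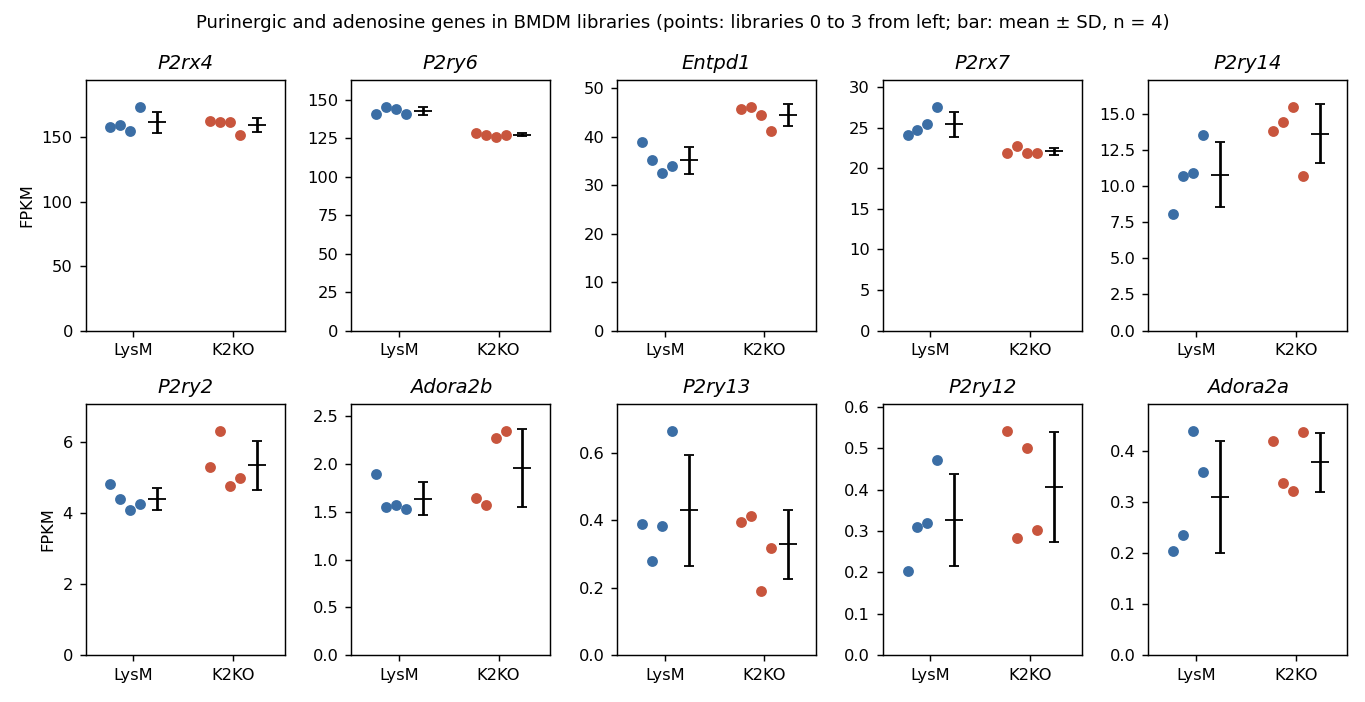
FPKM (y axis, from 0) of the 10 purinergic and adenosine genes in the 4 LysM and the 4 K2KO libraries (x axis), 1 panel per gene, with points for single libraries and a bar for the mean ± SD. The groups do not overlap for Entpd1, P2ry6 and P2rx7, while the lowest panels, P2ry13, P2ry12 and Adora2a, stay under 0.7 FPKM.

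Between the genotypes, Entpd1 was the 1 member that passed the test, and it was higher in the libraries labelled K2KO. P2rx7 and P2ry6 were lower in every library labelled K2KO, by less than the fold change threshold, and quantile normalization took the difference of P2ry6 to 0.0013. P2rx4 differed little. P2ry2, P2ry14 and Adora2b had higher means with groups that overlapped, and P2ry12, P2ry13 and Adora2a were too low to be tested. The test was limma on log2(FPKM + 0.1) for genes with a mean of at least 1 FPKM. A gene was called differentially expressed when its adjusted p was under 0.05 and its log2 fold change was above 0.26 or below -0.26. Both thresholds follow the methods of the study. Of the 7 members tested, 1 was differentially expressed, or 14.3%, where 18.4% of all 10920 tested genes were (9.84% higher and 8.61% lower). An adjusted p under 0.05 at any fold change was reached by 3 of the 7, against 20.9% of all tested genes. An unadjusted p under 0.05 was reached by 4 of the 7, against 37.8%, and 3 of the 7 had groups that did not overlap, against 23.1%. The median log2 fold change of the 7 was 0.23, the value of Adora2b (limma adjusted p = 0.313), and that of all tested genes was 0.01. Single values of the 7 ran from -0.20 to 0.34, and from -0.27 to 0.36 with the GC content and length correction.

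Entpd1 (ENSMUSG00000048120.16), the main ectonucleotidase of leukocytes, lies at chr19:40612366-40741602 on the plus strand. It was at 38.9, 35.3, 32.5 and 33.9 FPKM in LysM0 to LysM3 and at 45.8, 46.2, 44.5 and 41.2 FPKM in K2KO0 to K2KO3. All 4 libraries labelled K2KO were above all LysM libraries, and K2KO3 and LysM0 came closest to each other. The mean rose from 35.1 ± 2.77 to 44.4 ± 2.26 FPKM (SD, n = 4), or by 0.34 on the log2 scale (standard error 0.07, 95% interval 0.18 to 0.50, limma adjusted p = 0.0168, higher in 4 of 4 libraries). The exact two-sided permutation test gave p = 0.0286, the smallest that 4 against 4 libraries allow. The rise was not called with the GC content and length correction, where it was 0.21 on the log2 scale (limma adjusted p = 0.0696). It was not called without LysM3 (limma adjusted p = 0.0607) or without K2KO2 (limma adjusted p = 0.0515).

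P2rx7 (ENSMUSG00000029468.17) encodes the channel that opens at high ATP, lets potassium leave the cell and thereby triggers the NLRP3 inflammasome. It lies at chr5:122643911-122691432 on the plus strand, 16.1 kb from P2rx4. P2rx7 was at 24.1, 24.7, 25.4 and 27.6 FPKM in LysM0 to LysM3 and 21.9, 22.8, 21.9 and 21.9 FPKM in K2KO0 to K2KO3. Each library labelled K2KO was below each LysM library, and 3 of the 4 lay within 0.1 FPKM of each other. It differed by -0.20 on the log2 scale (standard error 0.06, 95% interval -0.33 to -0.07, limma adjusted p = 0.0383, exact permutation p = 0.0286), short of the fold change threshold. With the GC content and length correction it was -0.27 (limma adjusted p = 0.0269), which is past that threshold, and no fit with 1 library left out called it.

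P2rx4 (ENSMUSG00000029470.15), the channel of higher ATP sensitivity that also resides in lysosomes, lies at chr5:122707544-122729738. It was at 158, 160, 155 and 174 FPKM in LysM0 to LysM3 and at 163, 162, 162 and 152 FPKM in K2KO0 to K2KO3. The groups overlapped, LysM3 was the highest library and K2KO3 the lowest. P2rx4 differed by -0.02 on the log2 scale, with a 95% interval of -0.15 to 0.12 (limma adjusted p = 0.846), and it was 0.13 with quantile normalization, so no direction is given. The difference between the neighbouring channel genes was not tested.

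P2ry6 (ENSMUSG00000048779.5), a receptor for UDP that couples to Gq and promotes phagocytosis and chemokine release, lies at chr7:100937630-100974649 on the minus strand. Its level was 141, 145, 144 and 141 FPKM in LysM0 to LysM3 and 128, 127, 126 and 127 FPKM in K2KO0 to K2KO3. Both groups were tight and did not overlap. P2ry6 differed by -0.17 on the log2 scale (standard error 0.05, 95% interval -0.28 to -0.06, limma adjusted p = 0.0427, exact permutation p = 0.0286), below the fold change threshold. It was 0.0013 with quantile normalization (limma adjusted p = 0.989) and -0.02 with the GC content and length correction (limma adjusted p = 0.779). With upper-quartile scaling it was -0.12, so the size of the difference depended on the processing.

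P2ry2 (ENSMUSG00000032860.5), a receptor for ATP and UTP by which phagocytes find dying cells, lies 21.9 kb from P2ry6, at chr7:100996568-101012866 on the minus strand. It was at 4.80, 4.38, 4.08 and 4.25 FPKM in LysM0 to LysM3 and at 5.29, 6.30, 4.75 and 4.98 FPKM in K2KO0 to K2KO3. Only K2KO2 fell below the highest LysM library. P2ry2 differed by 0.27 on the log2 scale (standard error 0.10, 95% interval 0.06 to 0.49, limma adjusted p = 0.0709, exact permutation p = 0.0571). After the GC content and length correction it was 0.36 and was called (limma adjusted p = 0.0419).

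P2ry14, P2ry13 and P2ry12 lie in a cluster on the minus strand of chromosome 3, within the span of Med12l on the opposite strand. The gap is 54.3 kb from P2ry14 to P2ry13 and 5.39 kb from P2ry13 to P2ry12. Med12l, a Mediator subunit gene, was at 0.0142 to 0.0676 FPKM and its exons overlap those of P2ry12. The libraries were made with a kit that keeps the strand, but whether the counting used it is not given in the sources used here. The genes of the cluster differed in level: P2ry14 was at several FPKM and the other two were near 0.

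P2ry14 (ENSMUSG00000036381.13), a Gi-coupled receptor for UDP-glucose, lies at chr3:59113855-59153618. It was at 8.08, 10.7, 10.9 and 13.5 FPKM in LysM0 to LysM3 and at 13.8, 14.4, 15.5 and 10.7 FPKM in K2KO0 to K2KO3. Of the libraries labelled K2KO, 3 were above every LysM library, and K2KO3 lay among them. P2ry14 differed by 0.34 on the log2 scale, as much as Entpd1, but the standard error was 0.16 and the 95% interval was -0.02 to 0.70 (limma adjusted p = 0.146, exact permutation p = 0.0857). It was 0.08 after the GC content and length correction, and the transcript of P2ry14 has a GC content of 39.4%.

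P2ry12 (ENSMUSG00000036353.13), at chr3:59216272-59262871, encodes the ADP receptor that is the target of clopidogrel. It was at 0.202, 0.310, 0.319 and 0.472 FPKM in LysM0 to LysM3 and at 0.542, 0.283, 0.4996 and 0.302 FPKM in K2KO0 to K2KO3. P2ry13 (ENSMUSG00000036362.2), another ADP receptor, at chr3:59207892-59210882, was at 0.389, 0.279, 0.383 and 0.665 FPKM and at 0.394, 0.411, 0.189 and 0.318 FPKM in the same order. The groups overlapped for both genes, with differences in mean log2(FPKM + 0.1) of 0.25 (exact permutation p = 0.400) and -0.29 (exact permutation p = 0.457). When genes with a mean of at least 0.1 FPKM were tested, neither passed (limma adjusted p = 0.555 and 0.499).

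Adora2b (ENSMUSG00000018500.2), the adenosine receptor of low affinity, lies at chr11:62248984-62266453 on the plus strand. It was at 1.89, 1.55, 1.57 and 1.53 FPKM in LysM0 to LysM3 and at 1.64, 1.57, 2.27 and 2.35 FPKM in K2KO0 to K2KO3. K2KO2 and K2KO3 were above every LysM library, and K2KO0 and K2KO1 lay among the LysM libraries. Adora2b differed by 0.23 on the log2 scale (95% interval -0.13 to 0.59, limma adjusted p = 0.313). Adora2a (ENSMUSG00000020178.5), its Gs-coupled relative of high affinity, at chr10:75316877-75334784, was at 0.204, 0.236, 0.4398 and 0.360 FPKM in LysM and at 0.419, 0.337, 0.321 and 0.437 FPKM in K2KO. Its groups overlapped (difference of 0.25, exact permutation p = 0.343), and at a mean of at least 0.1 FPKM it did not pass (limma adjusted p = 0.485).

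**Figure D2:**
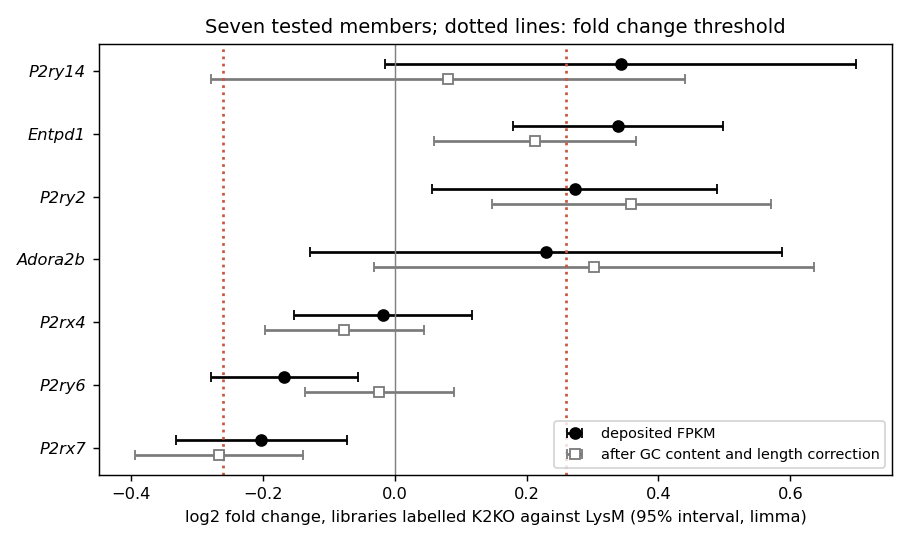
Log2 fold change (x axis) of the libraries labelled K2KO against LysM for the 7 tested members (y axis), with 95% intervals from limma, for the deposited FPKM (filled circles) and with the GC content and length correction (open squares). Dotted lines mark the threshold of 0.26. Entpd1 lies past it with the deposited values and short of it after the correction, P2rx7 and P2ry2 gain the call with the correction, and P2rx4 stays near 0.

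The GC content of a transcript moved with the fold change in the whole table. Across 10899 tested genes, which are not independent replicates, Spearman's rho between them was -0.40. The correction left 1102 genes called, or 10.1%, and 851 of these were among the 2014 called without it. Of the members, P2ry12 had the lowest GC content, at 38.6%, and Adora2a the highest, at 59.2%, and Entpd1 was at 44.7%. Whether the trend is a library or a cell property was not tested.

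KLF factors bind the DNA word CACCC and its GC-rich variants, so the start sites of the members were searched for it in RefSeq windows of 250 bases upstream and 50 downstream (GRCm38.p6). Of the 10 members, 8 had windows, 14 in all, and P2ry6 and Adora2a had none in the table used. CACCC, or GGGTG on the other strand, stood in the part upstream of the start site in 9 of the 14 windows, where 52.0% of 32817 windows of all genes hold it. By member, 6 of the 8 had it in at least 1 window, and no share per gene was computed for all genes. Windows of P2ry2 overlap each other, as do windows of P2ry14, so some matches are counted in more than 1 window. Matches are a description of letters, not of binding. Upstream sequences outside annotated exons are printed for both start sites of Entpd1, the member called, and for 1 start site each of P2rx7, P2ry2 and P2rx4, which were called only after the correction or stayed level. They read 5′ to 3′ on the gene's strand, with CACCC and GGGTG in capitals:

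Entpd1, chr19:40612234-40612365, plus strand: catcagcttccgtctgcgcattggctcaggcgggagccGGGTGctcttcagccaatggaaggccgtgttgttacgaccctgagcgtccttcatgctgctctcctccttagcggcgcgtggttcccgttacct
Entpd1, second start site, chr19:40659520-40659769, plus strand: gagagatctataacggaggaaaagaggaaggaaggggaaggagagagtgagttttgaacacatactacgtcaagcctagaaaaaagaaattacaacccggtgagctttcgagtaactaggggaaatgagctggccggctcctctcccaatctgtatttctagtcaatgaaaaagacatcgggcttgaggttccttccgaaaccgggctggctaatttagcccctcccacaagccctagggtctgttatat
P2rx7, chr5:122643677-122643910, plus strand: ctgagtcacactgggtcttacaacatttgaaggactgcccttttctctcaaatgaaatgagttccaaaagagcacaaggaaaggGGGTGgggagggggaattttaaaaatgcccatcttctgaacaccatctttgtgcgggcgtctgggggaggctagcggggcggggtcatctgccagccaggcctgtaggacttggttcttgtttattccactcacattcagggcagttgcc
P2rx4, chr5:122707294-122707543, plus strand: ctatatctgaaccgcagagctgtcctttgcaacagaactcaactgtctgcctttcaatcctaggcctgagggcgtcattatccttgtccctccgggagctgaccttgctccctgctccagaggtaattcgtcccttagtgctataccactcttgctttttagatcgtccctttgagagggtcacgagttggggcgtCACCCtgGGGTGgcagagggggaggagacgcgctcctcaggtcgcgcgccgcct
P2ry2, chr7:101012054-101012303, minus strand: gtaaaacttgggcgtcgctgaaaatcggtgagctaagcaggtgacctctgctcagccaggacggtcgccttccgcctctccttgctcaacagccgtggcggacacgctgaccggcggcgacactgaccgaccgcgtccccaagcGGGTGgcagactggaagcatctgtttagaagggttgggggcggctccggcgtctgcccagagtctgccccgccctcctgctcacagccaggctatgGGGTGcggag

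In these sequences, Entpd1 has a match that begins at -94, counted from its first RefSeq start site, and another at -231, not printed since that part of the window overlaps an exon of Tctn3. It has none before its second. P2rx7 has a match at -166, and its second start site, not printed, has one at -142. P2rx4, whose level differed little, has a pair in opposite directions at -54 and -47, and P2ry2, whose window lies inside the GENCODE span of the gene but outside its exons, has a pair at -106 and -10.

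The genes around the receptors were described by 5 lists of 108 genes, of which 105 were listed and 71 tested. In the libraries labelled K2KO, 9 of them were called higher and 6 lower, or 21.1%, close to the 18.4% of all tested genes. Their median log2 fold change was 0.01. Of the 15 called genes, 10 belong to the list of G proteins and cyclic AMP or calcium signalling and 4 to that of nucleotide hydrolysis and adenosine handling. No gene of the lists of nucleotide release (8 tested, limma; 2 at an unadjusted p under 0.05) or of P2X7 partners and outputs (13 tested; 3 at an unadjusted p under 0.05) was called.

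Of 13 other purinergic or related receptors, 11 were listed and 2 were tested. Gpr34, a lysophosphatidylserine receptor related to the P2Y12 group, was at 0.348, 0.763, 0.499 and 0.663 FPKM in LysM0 to LysM3 and at 2.01, 0.930, 1.81 and 1.40 FPKM in K2KO0 to K2KO3. All libraries labelled K2KO were higher, with a difference of 1.29 on the log2 scale (standard error 0.30, limma adjusted p = 0.0217, higher in 4 of 4 libraries). Its mean over all libraries, 1.05 FPKM, reached the minimum of 1 FPKM only through the libraries labelled K2KO, and at a minimum of 0.1 FPKM the adjusted p was 0.0243 with limma. Gpr34 passed in 4 of the 8 fits with 1 library left out, and its difference was 0.68 at a pseudocount of 1. The microglial markers Tmem119 and Siglech, described with the other markers, were also higher in each of these libraries, and their part in the value of Gpr34 was not tested. P2ry1, an ADP receptor that couples to Gq, was at 2.55 ± 0.546 and 2.16 ± 0.456 FPKM (SD, n = 4; limma adjusted p = 0.406). P2ry4 and Adora1 were listed at 0 in all libraries.

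Of 30 genes for nucleotide hydrolysis and adenosine handling, 15 were tested, and 2 were higher and 2 lower, or 26.7%, where 18.4% of all tested genes were called. Entpd7, an intracellular relative of Entpd1, was at 4.28, 3.78, 3.71 and 3.67 FPKM in LysM0 to LysM3 and at 4.53, 4.66, 4.91 and 4.67 FPKM in K2KO0 to K2KO3. Its increase on the log2 scale was 0.28 (limma adjusted p = 0.0286), and its exons overlap those of Cox15, at 4.45 FPKM, on the opposite strand, so its reads are uncertain. Adk, adenosine kinase, which returns adenosine to AMP, rose from 9.42 ± 0.472 to 11.6 ± 1.28 FPKM (log2 fold change 0.29, limma adjusted p = 0.0396). Ada, adenosine deaminase, which turns adenosine into inosine, fell from 2.10 ± 0.158 to 1.57 ± 0.225 FPKM (log2 fold change -0.41, limma adjusted p = 0.0487). Slc29a1, the equilibrative transporter that carries adenosine across the plasma membrane, fell from 61.8 ± 4.83 to 50.9 ± 4.28 FPKM (log2 fold change -0.28, limma adjusted p = 0.0393; SD, n = 4 throughout).

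None of these 4 genes was called after the GC content and length correction, where Adk was at 0.06, Entpd7 at 0.16, Slc29a1 at -0.17 and Ada at -0.27 on the log2 scale. With 1 library left out in turn, Entpd7 was called in 2 of 8 fits, Adk and Ada in 1 each and Slc29a1 in 0. Pnp, purine nucleoside phosphorylase, was the most abundant of the list at 111 ± 22.3 and 89.8 ± 17.1 FPKM (limma adjusted p = 0.239), and it shares its locus with the near-identical Pnp2, so its reads are uncertain. Cant1, a calcium-dependent nucleotidase of the secretory pathway, was at 33.6 ± 1.69 and 30.3 ± 1.01 FPKM (limma adjusted p = 0.0908), and Slc29a3, a lysosomal nucleoside transporter, at 16.5 ± 0.810 and 19.0 ± 2.58 FPKM (limma adjusted p = 0.148). Nt5e (CD73), the ectoenzyme that makes adenosine from the AMP that Entpd1 leaves, was listed at only 0.0095 to 0.116 FPKM. It was not tested, and Entpd3, Enpp3 and Slc28a3 were listed at 0 in all libraries. Acpp, of the same list, lies outside the rule for naming and is named after its values were seen. It was too low for the main test, at 0.146 to 0.268 FPKM in LysM and 0.396 to 0.501 FPKM in K2KO. At a minimum of 0.1 FPKM it passed (limma adjusted p = 0.0309).

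Of 40 genes for G proteins and cyclic AMP or calcium signalling, 33 were tested, and 6 were higher and 4 lower, or 30.3%, where 18.4% of all tested genes were called. The lower ones include Gnb2, a beta subunit, which was at 344, 361, 370 and 375 FPKM in LysM0 to LysM3 and at 276, 273, 296 and 306 FPKM in K2KO0 to K2KO3 (log2 fold change -0.33, limma adjusted p = 0.0139). Arrb2, the arrestin that turns receptors off, was at 277, 290, 319 and 339 FPKM in LysM0 to LysM3 and at 222, 193, 214 and 247 FPKM in K2KO0 to K2KO3. Its groups did not overlap, and Arrb2 fell by 0.48 on the log2 scale (standard error 0.09, adjusted p = 0.0141 with limma). The exons of Arrb2 overlap Mir7115, listed at 107 FPKM, and those of Gnb2 overlap Mir6418, at 2.77 FPKM, so the reads of both are uncertain. Gna15, a Gq-class alpha subunit of blood cells, was at 6.41, 5.90, 5.73 and 6.42 FPKM in LysM0 to LysM3 and at 4.13, 3.63, 3.81 and 5.28 FPKM in K2KO0 to K2KO3. Every library labelled K2KO was lower, and Gna15 fell by 0.54 on the log2 scale (standard error 0.11, adjusted p = 0.0169 with limma).

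Among the higher ones, Adcy7, an adenylyl cyclase of myeloid cells, was at 43.4, 34.4, 34.97 and 31.9 FPKM in LysM0 to LysM3 and at 49.3, 55.2, 50.7 and 41.9 FPKM in K2KO0 to K2KO3. K2KO3 was below LysM0, and Adcy7 differed by 0.45 on the log2 scale (standard error 0.11, limma adjusted p = 0.0263). Prkacb, a catalytic subunit of protein kinase A, rose from a mean of 22.1 to 26.9 FPKM (log2 fold change 0.28, limma adjusted p = 0.0233), and Prkar2a, a regulatory subunit, from 4.51 to 6.10 FPKM (log2 fold change 0.42, limma adjusted p = 0.0239). Gnas, which encodes the Gs alpha subunit used by both adenosine receptors, was at 236 ± 26.7 and 267 ± 28.5 FPKM (limma adjusted p = 0.221). Gng5 and Prkar1a were not called (limma adjusted p = 0.566 and 0.390), and Gng5 has near-identical copies.

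The other 4 called genes of the list lie outside the rule for naming and are named after their values were seen. They are Pde4b, a phosphodiesterase that degrades cyclic AMP (log2 fold change 0.85, limma adjusted p = 0.0308), Crem, a cyclic AMP-responsive transcription factor (0.78, limma adjusted p = 0.0292), and the Gi subunits Gnai3 (0.35, limma adjusted p = 0.0287) and Gnai2 (-0.27, limma adjusted p = 0.0266). With the GC content and length correction, 4 of the 33 were called, namely Arrb2, Gna15, Adcy7 and Prkar2a, where 10.1% of all tested genes were. The values of Gnb2 and Prkacb were then -0.12 and 0.16 (limma adjusted p = 0.157 and 0.0769), those of Gnai2 and Gnai3 -0.13 and 0.21, and Pde4b and Crem missed the test (limma adjusted p = 0.0685 and 0.0632). Gnb2 was not called with quantile normalization either. With 1 library left out, Gnb2 was called in 7 of 8 fits, Arrb2 in 6, Gna15 in 5, Prkacb in 3, and Adcy7 and Prkar2a in 2 each.

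**Figure D3:**
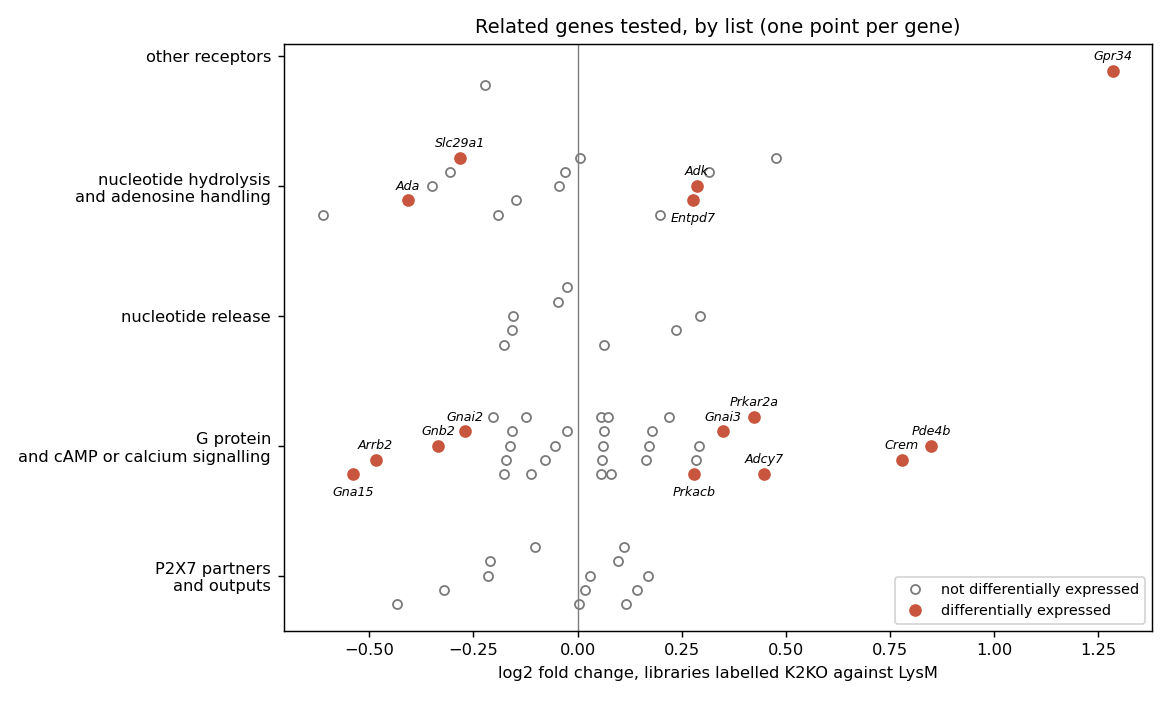
Log2 fold change (x axis) of the libraries labelled K2KO against LysM for the 71 tested genes of the 5 related lists (y axis, with points set apart vertically), with called genes filled and named. Called genes lie on both sides of 0 for nucleotide handling and G protein signalling, and the lists of nucleotide release and P2X7 partners have none.

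In the list of nucleotide release, Lrrc8d, a subunit of the volume-regulated anion channel, was at 11.4 ± 1.27 and 13.4 ± 1.11 FPKM (SD, n = 4; limma adjusted p = 0.0925). Calhm2 and Fam26f, of the family of large-pore calcium homeostasis modulator channels, had limma adjusted p of 0.752 and 0.512. Lrrc8d carries stretches found nearly identical in other transcripts, and the exons of Calhm2 overlap those of Pdcd11, so both are uncertain. In the list of P2X7 partners and outputs, Cd14, the lipopolysaccharide co-receptor that P2X7 sheds from the surface, was at 999, 1099, 969 and 1046 FPKM in LysM0 to LysM3 and at 830, 664, 892 and 930 FPKM in K2KO0 to K2KO3. The groups did not overlap, and the log2 fold change of -0.32 missed the test (limma adjusted p = 0.0630). Ninj1, which ruptures the membrane of dying cells, was at 329 ± 6.80 and 352 ± 15.4 FPKM (limma adjusted p = 0.249), and Gsdmd, the pore-forming gasdermin, at 70.7 ± 5.54 and 60.9 ± 4.94 FPKM (limma adjusted p = 0.0833; SD, n = 4 throughout). With the GC content and length correction Ninj1 was called at a log2 fold change of 0.36 (limma adjusted p = 0.0252).

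Of the markers of other cells that carry these receptors, some were called, and the others were not called or were too low to be tested. The 5 platelet and megakaryocyte markers summed to 3.94 ± 1.06 FPKM in LysM and 7.10 ± 1.88 FPKM in K2KO (SD, n = 4), and 1 of the 2 tested was called. That gene is Ppbp, the most abundant of the list at 3.17 FPKM, which had a log2 fold change of 1.07 (adjusted p = 0.0291) with groups that overlapped. Gp9, under the minimum of 1 FPKM, was higher in every library labelled K2KO, at 0.547 to 0.924 against 0.152 to 0.386 FPKM (adjusted p = 0.0246 with limma at a minimum of 0.1 FPKM). Of the microglial markers, Gpr34 was called, and the more specific Tmem119 and Siglech, both too low to be tested, were higher in every library labelled K2KO as well. Tmem119 was at 0.0864 to 0.152 FPKM in LysM and 0.219 to 0.375 FPKM in K2KO (adjusted p = 0.0428 with limma at a minimum of 0.1 FPKM), and Siglech at 0.0658 to 0.295 and 0.339 to 0.712 FPKM (adjusted p = 0.0911). Neutrophil markers summed to 215 ± 50.8 and 214 ± 52.0 FPKM, with S100a9 the most abundant at 129 FPKM, and of 6 tested Camp alone was called (16.7%, against 18.4% of all tested genes), at 13.6 ± 2.21 FPKM in LysM and 6.40 ± 2.53 FPKM in K2KO (SD, n = 4; log2 fold change -1.14). Of 3 monocyte markers tested, Cx3cr1 alone was called (33.3%, against 18.4% of all tested genes), and it was lower (log2 fold change -1.09, limma adjusted p = 0.0239). Ly6c2 and Ccr2 were not called (log2 fold change 0.16 and -0.14, limma adjusted p = 0.616 and 0.725). The sums were 27.7 ± 7.62 and 23.5 ± 4.70 FPKM, led by Ccr2 at 18.7 FPKM.

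Among the 9 macrophage markers, all tested, 2 were called, or 22.2%, near the 18.4% of all tested genes. Mertk was higher (log2 fold change 0.36, limma adjusted p = 0.0285) and Lyz2 lower (-0.49, limma adjusted p = 0.0260), and the sums were 4181 ± 93.9 and 3893 ± 78.8 FPKM (SD, n = 4). With the GC content and length correction Mertk, Lyz2 and Ppbp were not called (limma adjusted p = 0.0679, 0.0616 and 0.0540). Lyz2 is the gene that carries Cre in both genotypes. The sums in LysM and K2KO were 1.70 and 2.79 FPKM for dendritic cells, 3.36 and 4.03 for endothelial cells, 0.551 and 1.64 for fibroblasts, 1.076 and 1.55 for T and B cells, 0.358 and 0.759 for mast cells and basophils and 0.758 and 1.06 for the erythroid line. Only Ccr7 and 2 endothelial markers among them reached the mean of at least 1 FPKM, and these 3 were not called, while the others could not be called. With a minimum of 0.1 FPKM, Kit, at 0.101 to 0.177 FPKM in LysM and 0.267 to 0.394 FPKM in K2KO, passed (adjusted p = 0.0314 with limma). Their most abundant genes were Ccr7 at 1.30, Kdr at 1.86, Dcn at 0.481, Cd79a at 0.834, Kit at 0.228 and Hba-a1 at 0.713 FPKM. No listed marker was at 0 in all libraries. The part of other cells in the values of Entpd1, P2ry12, P2ry14 and Gpr34 was not tested.

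**Figure D4:**
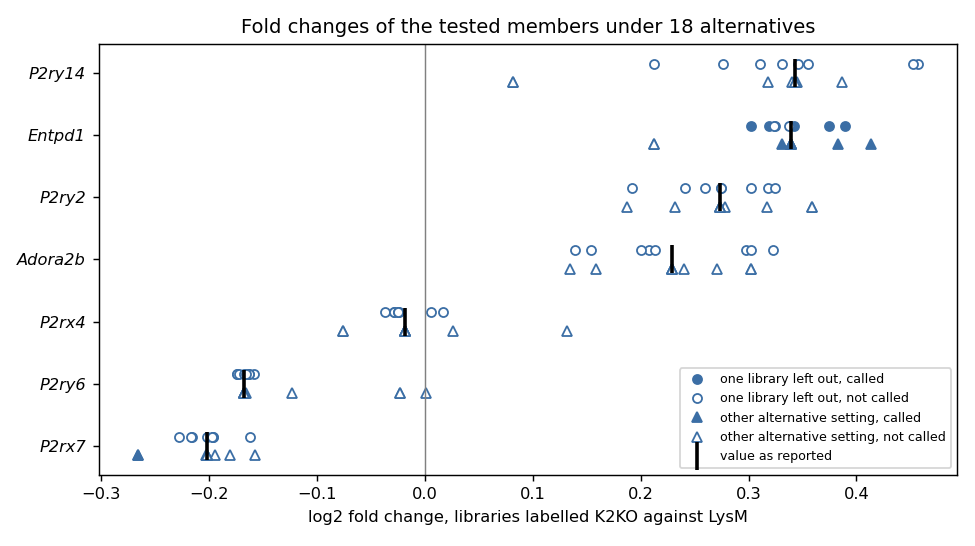
Log2 fold change (x axis) of the 7 tested members (y axis) under 18 alternatives, of which 8 leave out 1 library each (circles) and 10 change a processing step (triangles), with the value as reported as a bar and filled symbols where the gene was called. Entpd1 stayed between 0.21 and 0.41, P2rx7 between -0.27 and -0.16, and P2rx4 lay on both sides of 0.

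Across these alternatives Entpd1 had the same direction in all 18 and was called in 6 of the 8 fits with a library left out and in 8 of the other 10. P2rx7 kept its direction in all 18, with an adjusted p under 0.05 in 2 of the 8 and 6 of the 10. It was called in 2 of the 10, the GC content and length correction alone and with the replicate block. P2ry6 lay between -0.17 and 0.0013, with an adjusted p under 0.05 in 2 of the 8 and 5 of the 10, and was never called. P2ry2 lay between 0.19 and 0.36, P2ry14 between 0.08 and 0.46 and Adora2b between 0.13 and 0.32. These 3 genes were above 0 in all 18, and of them only P2ry2 was called, in 1 of the 18.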

How the data were processed

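Total RNA of BMDMs from 4 LysM and 4 K2KO mice was sequenced, with 1 library per mouse. The authors deposited 1 table of FPKM, computed with Cufflinks after alignment to mm10 with no pooling of replicates. The methods name TopHat2 as the aligner, the submitters' processing notes name STAR, Cufflinks and Cuffdiff, and versions, gene annotation and filter are not given in the sources used here. The methods and the labels name different RNA isolation kits. FPKM are not counts, so read depth is unknown and no counting interval was computed. Steps among low FPKM put the relative depth at 0.904 to 1.34 of LysM0.

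Of 23761 genes, 23645 were matched by Ensembl identifier to GENCODE M21 (GRCm38). Genes with a mean of at least 1 FPKM entered limma 3.58.1 (R 4.3.3; lmFit, then eBayes with trend) as log2(FPKM + 0.1), which understates the fold change of low genes. Adjusted p are Benjamini-Hochberg values over all 10920 tested genes. Single genes were also compared by an exact two-sided permutation test over 35 splits. No covariate was used. P-values measure the spread between libraries.

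The members and gene lists were chosen with earlier results of these data known. All members, Klf2, up to 6 called genes of each related list by adjusted p and up to 3 uncalled genes by mean FPKM are named, with marker genes (1 of them is not reported here), genes that overlap a member and Gapdh and Actb. Copies mean at least 95% identity over 200 bases, and no member had one. Alternatives were pseudocounts of 1 and 0.01, a minimum of 0.1 FPKM or none, quantile and upper-quartile scaling, no intensity trend, a fold change threshold of 1, a local regression on GC content and transcript length (span 0.3), a block on the column number and each library left out. The fit was checked on made-up data with known changes in 200 genes. It recovered 120 of them at a log2 change of 0.5 and 180 at a change of 1, with 5 false calls each time. Smaller changes were not tried.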

Additional observations from a re-analysis of the deposited data

Results flagged for a closer look

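In 70 groups of 4 libraries, 5 had a highest or lowest library farther from the nearest other, relative to the range, than Dixon's critical value at the 95% level, where chance gives about 1 in 20 groups, or 3.5. P2rx4 was at 152 FPKM in K2KO3 and at 162 to 163 FPKM in the other K2KO libraries, and without K2KO3 its log2 fold change was 0.0054. P2rx7 was at 22.8 FPKM in K2KO1 against 21.9 FPKM in each of the others, still below every LysM library. Adora2b was at 1.89 FPKM in LysM0 against 1.53 to 1.57 FPKM. Among related genes, Prkar2a was at 5.10 FPKM in LysM0 against 4.31 to 4.32 FPKM, and Gnas was at 309 FPKM in K2KO1 against 247 to 256 FPKM.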

How the results depend on the processing

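Over all genes, 2014 were called. The count was 1102 with the GC content and length correction, 903 with the replicate block and that correction together, 1090 without a filter and 110 at a log2 fold change over 1. It ranged from 337 (without LysM3) to 2837 (without K2KO3) with 1 library left out, and was 736 without LysM1, 1030 without LysM2, 706 without K2KO0, 726 without K2KO1 and 496 without K2KO2. The share of calls that were higher was 53.3%, and 64.1% with upper-quartile scaling. Of the members, 1 was called. The count was 2 with the GC content and length correction (P2rx7 and P2ry2) and 0 at a log2 fold change over 1, and it ranged from 0 (without LysM3 and without K2KO2) to 1 with 1 library left out. Of the related lists, 15 genes were called, and the count was 6 with that correction, 4 with the replicate block as well, 7 without a filter and 1 at a log2 fold change over 1. With 1 library left out it ranged from 0 (without LysM3) to 17 (without K2KO3), with 1 without K2KO2, 3 without K2KO0, 4 without LysM1, 5 without LysM2 and 6 without K2KO1. The direction of P2rx4 turned with quantile normalization (0.13), upper-quartile scaling (0.026), without LysM3 (0.017) and without K2KO3 (0.0054). Its range with 1 library left out was -0.037 to 0.017. The sign of P2ry6 turned with quantile normalization alone, at 0.0013 (limma adjusted p = 0.989). That of Klf2 turned with the GC content and length correction, alone and with the replicate block (0.058 in both). The causes were not tested.

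Libraries that share a column number did not deviate together (correlations of -0.07, 0.02, 0.07 and -0.06 for numbers 0 to 3 over 10920 genes), so the number pairs nothing known. With the replicate block, 2057 genes, 1 member (Entpd1) and 10 genes of the related lists were called, and Gpr34, Entpd7, Adk and Ada were among those no longer called. Without read counts, the limit that depth sets cannot be given. It bears most on P2ry12, P2ry13 and Adora2a, which entered the test only with a minimum of 0.1 FPKM or none and passed in neither.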
